A study of Mus musculus with 4 samples.

Results

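The genes described here are 8 genes of GABA and glycine inhibition in the mouse spinal cord: *Gad1* and *Gad2*, which encode the enzymes that make GABA, *Slc6a5*, the glycine transporter of glycinergic nerve endings, *Glra1* and *Glrb*, subunits of the glycine receptor, *Gabbr1* and *Gabbr2*, the subunits of the GABA-B receptor, and *Slc12a5*, the neuronal chloride exporter. They were taken by gene name from the deposited tables of m6A peaks, and they are 8 of the 13558 gene names found there. They held 26 of the 33556 peaks in the CCI list, 27 of the 34406 peaks in the sham list and 9 of the 4812 rows in the table of peaks that differed between the groups. All 8 genes had at least 1 peak in both lists, as did 11761 of the 13554 gene names with a peak in either list.

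Inhibitory neurons of the dorsal horn release GABA, glycine or both, and these transmitters open chloride channels (GABA-A and glycine receptors) or act through the G protein coupled GABA-B receptor. Their effect on a neuron depends on its chloride gradient, which the exporter keeps steep in adult neurons, and weakened spinal inhibition is a known feature of neuropathic pain. m6A is a methyl mark on adenosine in mRNA that is often found near stop codons and in long exons, that is laid down by a methyltransferase complex and removed by demethylases such as FTO, and that can alter the decay and translation of a transcript.

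The tissue was spinal cord of male C57BL/6J mice aged 6 to 8 weeks, collected 7 days after surgery, which was either chronic constriction injury (CCI), a loose ligation of the sciatic nerve with silk, or a sham operation. In MeRIP-seq, fragmented RNA is captured with an antibody against m6A (the IP library) and compared with uncaptured RNA of the same sample (the input library). Each group had 1 IP and 1 input library, and the number of mice behind a library was not given in the sources used here. Differences between CCI and sham are thus values of single library pairs, and they carry no p-value.

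A peak is a stretch of exonic sequence in which the authors found more IP than input signal, and its fold enrichment is their ratio of IP over input. Read counts are missing from the tables used here, so library depth is unknown and a fold enrichment has no error. Each list has its own input and its own peak borders. The list median of fold enrichment was 5.72 for CCI and 5.70 for sham. Whole spinal cord holds many cell types, and with tissue libraries a change in the cells that carry a transcript and a change in the marked share of that transcript cannot be told apart. All 4 neuronal, all 4 oligodendrocyte, all 4 astrocyte and all 4 microglial marker genes looked for had a peak in both lists. Of 4 Hox genes of the caudal cord 3 had a peak in both lists (*Hoxc9* had none), against 1 of 3 forebrain genes, 1 of 3 genes of dorsal root ganglion neurons (*Avil* had none in either list) and 1 of 3 non-neural genes (*Alb* and *Ins2* had none). A peak shows that a transcript was captured and is no measure of its level.

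Sequence was at hand only around transcription starts, from RefSeq (GRCm38.p6; the submitters' notes name GRCm38 for the deposited data), and start windows were found for 7 of the 8 genes, with none for *Glra1*. The first 50 transcribed bases lay wholly under the 5′-UTR peak in both lists for *Gad2* and for the downstream start of *Slc12a5*. For *Gabbr2* all 50 lay under the sham peak and none under the CCI peak, and for *Gabbr1* 20 lay under the sham peak and none under the CCI peak. For *Gad1*, *Glrb*, *Slc6a5* and the upstream start of *Slc12a5* none of these bases lay under a peak. The 30 bases below are shown for the *Gad2* and *Gabbr2* starts, because they hold the only copies of GACT in the transcribed part of the members' windows. GACT, searched on the transcribed strand and chosen after the sequences were seen, is a form of the m6A core, and the capitals mark it. The *Gad2* copy starts at base 43 from the start site and lies in both peaks, and the *Gabbr2* copy starts at base 18 and lies in the sham peak alone.
Gad2, chr2:22622347-22622376, plus strand: cctttccactttccaatctccaGACTgcga
Gabbr2, chr4:46991681-46991710, minus strand: agaggcgcgcggaGACTcggccccctcggc
GACT was found in the same 50 bases of 5512 of 32851 RefSeq start windows (16.8%). A match of these letters is a description and does not place the mark at that base.

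Peaks of the same site in both lists were paired where each was the other's best partner. Partners were ranked by the exonic bases in both peaks as a share of the bases in either. Of the members' peaks, 25 of 26 in CCI and 25 of 27 in sham formed such pairs, whereas 81.6% of all CCI peaks and 79.6% of all sham peaks did. In 7 of the 25 pairs the borders were the same to the base, and the annotated region was the same in all 25. The plot of fold enrichment by peak sets the levels of the 25 sites in both groups side by side.

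**Figure D1:**
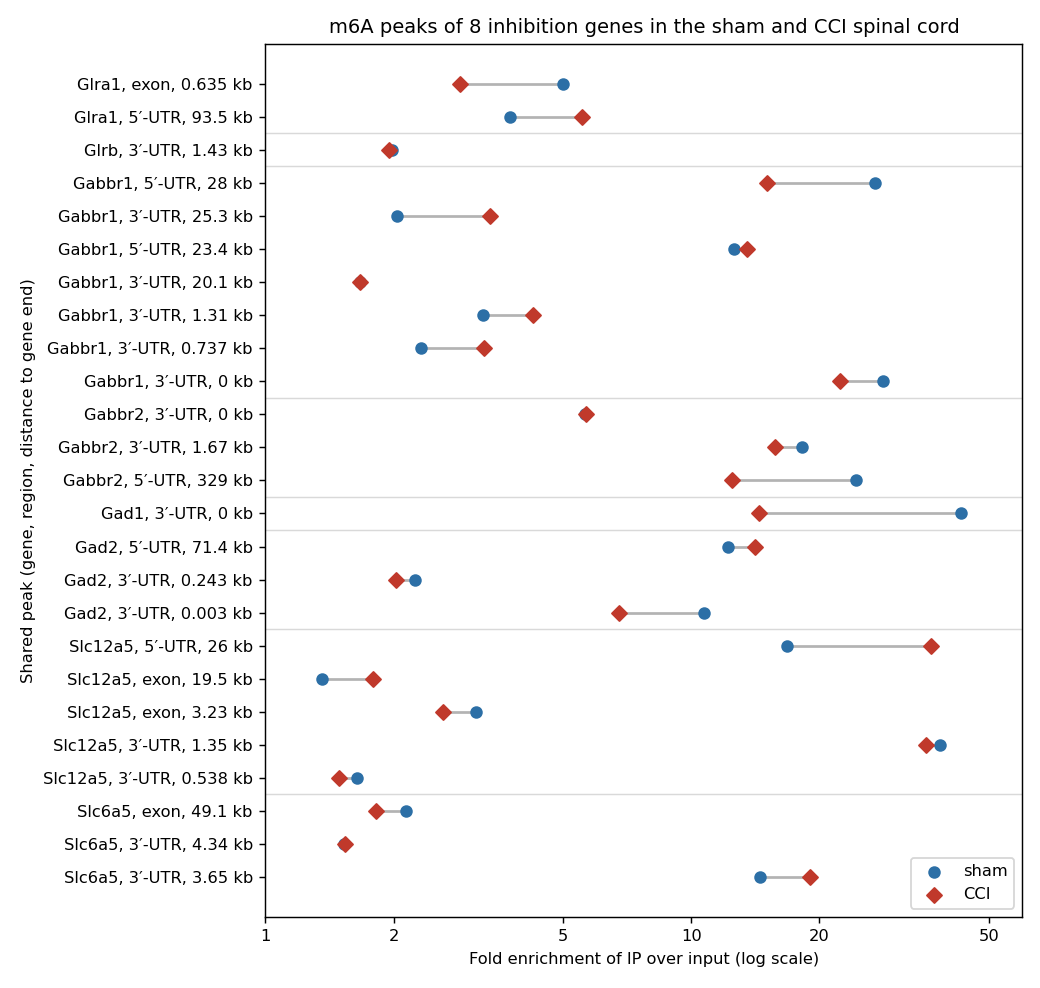
Fold enrichment of IP over input (log scale) for the 25 m6A peaks of the 8 genes found in both lists, with sham as circles and CCI as diamonds, 1 library pair each. Rows give the gene, the annotated region and the distance of the peak to the RefSeq end of the gene. The widest gaps are at the *Gad1* 3′-UTR peak (14.4 in CCI, 43.0 in sham) and the *Slc12a5* 5′-UTR peak (36.5 in CCI, 16.8 in sham).

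Over the 25 pairs the log2 ratio of fold enrichment, CCI over sham, had a median of -0.02, with 11 pairs higher in CCI, 13 lower and 1 equal. The middle 50% of the pairs lay between -0.26 and 0.38. Over all 27380 pairs the median was 0.03, the middle 50% lay between -0.37 and 0.43, and 47.8% were lower in CCI. An absolute log2 ratio of at least 1, a change of fold enrichment by a factor of 2 or more, was seen in 2 member pairs and in 15.8% of all pairs. Both member pairs were strong. Where the higher fold enrichment was at least 10, it was seen in 2 of 11 member pairs and in 29.9% of all 11084 pairs. A ratio within 0.5 of 0 was seen in 17 of the 25 member pairs and in 58.5% of all pairs. The members as a group thus showed no common direction, and the changes past the threshold came from a site in *Gad1*, which was lower in CCI, and a site in *Slc12a5*, which was higher.

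*Gad1* (ENSMUSG00000070880, chr2:70561303-70602014, plus strand) encodes the GABA-making enzyme that makes most of the basal GABA. It carried a single peak, in the 3′-UTR at the very end of the gene (CCI chr2:70601924-70602014, 91 bp, and sham chr2:70601894-70602014, 121 bp). Its fold enrichment was 14.4 in CCI and 43.0 in sham. This was the largest gap of any member peak, 2.99-fold lower in CCI, with a log2 ratio of -1.58. Ranked by fold enrichment, it was among the top 19.1% of CCI peaks and the top 4.31% of sham peaks, and the log10 false discovery rate of the peak itself was -31.9 in CCI and -44.0 in sham. Among all pairs, the absolute log2 ratio was at least 1 in 20.8% of the 3400 whose shorter peak had at most 91 bp. It was at least 1 in 29.9% of the 11084 pairs whose higher fold enrichment was at least 10. *Gad1* had no row in the differential table.

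*Gad2* (ENSMUSG00000026787, chr2:22621015-22693877, plus strand) encodes the synaptic form of the GABA-making enzyme. Its 3 peaks were found in both lists. The 5′-UTR peak, which covers the start sequence printed above (chr2:22622205-22622475, the same borders in both lists), had a fold enrichment of 14.1 in CCI and 12.2 in sham, a log2 ratio of 0.21. At the 3′ end, the peak next to the last base of the gene (chr2:22693784-22693874, 91 bp in both lists) had 6.78 in CCI and 10.7 in sham, a log2 ratio of -0.66. The weaker 3′-UTR peak before it, which starts at 22693484 in CCI, had 2.03 in CCI and 2.24 in sham, a log2 ratio of -0.14. The terminal peaks of *Gad1* and *Gad2*, both at the last bases of their genes, were thus lower in CCI, while the *Gad2* start was not, and none of the 3 *Gad2* sites reached the threshold of 1. *Gad2* had no differential row.

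*Slc6a5* (ENSMUSG00000039728, chr7:49906984-49963864, plus strand) marks glycinergic neurons, whose endings it loads with glycine. Its strongest peak lay in the 3′-UTR (chr7:49960001-49960210 in both groups) and had a fold enrichment of 19.0 in CCI and 14.5 in sham, a log2 ratio of 0.39. Less than 1 kb upstream a weak 3′-UTR peak had 1.54 in CCI and 1.53 in sham. An exon peak, annotated to exon 2 of 16, had 1.82 in CCI and 2.14 in sham, a log2 ratio of -0.23, and this weak site was the only *Slc6a5* peak with a row in the differential table. The 3′-UTR thus held a strong and a weak site in both groups.

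*Glrb* (ENSMUSG00000028020, chr3:80843598-80913660, minus strand) encodes the beta subunit, which anchors the glycine receptor to the scaffold protein gephyrin. It had a single weak 3′-UTR peak (chr3:80845031-80845210, the same borders in both lists), with 1.95 in CCI and 1.98 in sham. Its log2 ratio was -0.02, and it had no differential row. Although weak, the peak had a log10 false discovery rate of -101 in CCI and -139 in sham, so a low fold enrichment here did not come with a weak score.

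*Glra1* (ENSMUSG00000000263, chr11:55514239-55608198, minus strand) encodes the adult alpha subunit, which forms the channel with the beta subunit. Its 5′-UTR peak (CCI chr11:55607751-55608198 and sham chr11:55607721-55608198) had a fold enrichment of 5.53 in CCI and 3.76 in sham, a log2 ratio of 0.56. A peak annotated as exon, near the other end of the gene, had 2.87 in CCI and 5.00 in sham, a log2 ratio of -0.80. Both paired sites that carry the name *Glra1* had a differential row, and they moved in opposite directions. A second exon peak was listed in CCI alone, within the span of the first (chr11:55514953-55515042, 90 bp), with a fold enrichment of 1.48 and a log10 false discovery rate of -6.65.

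The end of *Glra1* overlaps *Gm12236* (ENSMUSG00000086460), a long non-coding RNA gene on the opposite strand, whose transcript in the tables runs from 55514846 to 55527715. All bases of the *Glra1* exon peaks (167 and 90 bp in CCI, 222 bp in sham) lay within the span of that transcript, introns included. The tables annotate these peaks to exon 1 of 2 of *Gm12236*. The reverse held for the strongest peak at this locus, which the tables name *Gm12236* and label 3′-UTR (CCI chr11:55514238-55514864, and sham chr11:55514238-55515102). Of its 627 bp in CCI, 626 lay in the RefSeq span of *Glra1* and 19 in the span of the *Gm12236* transcript. Of its 865 bp in sham, these numbers were 864 and 257, again with introns included. Its fold enrichment was 48.5 in CCI and 33.0 in sham, which is 1.47-fold higher in CCI with a log2 ratio of 0.56, well above any peak that carries the name *Glra1*. The libraries were made with a strand-marking kit, but whether strand was used in peak calling was not stated. For bases that lie in both genes, the gene behind a peak thus cannot be told apart here. In both lists the paired *Glra1* exon peak had its last block end at 55527715, where the *Gm12236* transcript ends. By position, most of the strong peak lay in the *Glra1* span outside the span of the *Gm12236* transcript. Because that peak carries the name *Gm12236*, the member counts leave it out. The lists also cut this locus differently. In sham the first block of the *Glra1* exon peak (55514874-55514986) lay inside the strong peak. In CCI the strong peak ended before the *Glra1* exon peak began. This limits the comparison of CCI with sham at the exon peak. No other RefSeq gene overlapped a peak of the 8 members.

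*Gabbr1* (ENSMUSG00000024462, chr17:37045966-37074305, plus strand) encodes the GABA-B subunit that binds GABA, and it carried the most peaks of the 8 genes, 7 in each list and all of them paired. At the 5′ end, the peak at the gene start (CCI chr17:37046026-37046236 and sham chr17:37045996-37046266) had a fold enrichment of 15.1 in CCI and 27.0 in sham, a log2 ratio of -0.84. The next 5′-UTR peak, with 2 blocks from 37049783 to 37050856, had 13.5 in CCI and 12.6 in sham, a log2 ratio of 0.10. Of the strong 5′ sites of this gene the first was therefore lower in CCI and the second nearly level.

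The strongest *Gabbr1* peak closed the gene (chr17:37074138-37074498, 3′-UTR), with 22.4 in CCI and 28.2 in sham, a log2 ratio of -0.33. In front of it, a 3′-UTR peak starting at 37073418 in CCI had 3.26 in CCI and 2.32 in sham, a log2 ratio of 0.49, and the one starting at 37072164 had 4.24 in CCI and 3.25 in sham, a log2 ratio of 0.38. The remaining sites carried a 3′-UTR label although they lay at 10.4% and 22.2% of the gene's length in sham, 25.3 and 20.1 kb before its RefSeq end, so a 3′-UTR label did not always place a peak near the end of the gene. The former had 3.37 in CCI and 2.04 in sham, a log2 ratio of 0.72, and the latter 1.67 in both. Of the 7 *Gabbr1* sites 4 were higher in CCI, all with a fold enrichment under 5 but the second 5′-UTR peak, and the strong peaks at both ends of the gene were lower. The 2 sites with a differential row, at 37048819 and 37073418 in CCI, were both higher in CCI.

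*Gabbr2* (ENSMUSG00000039809, chr4:46662318-46991714, minus strand) encodes the subunit that couples the GABA-B receptor to its G protein. The 5′-UTR peak had a fold enrichment of 12.5 in CCI and 24.4 in sham, a log2 ratio of -0.96. Its borders were narrower in CCI (chr4:46991453-46991543, 91 bp) against sham (chr4:46991393-46991753, 361 bp), the peaks shared 25.2% of their bases, and the start sequence printed above lay in the sham peak alone. The log10 false discovery rate was -2.64 in CCI and -5.13 in sham, the weakest of the member peaks in each list. A high fold enrichment here thus came with a weak score, although both peaks stayed below a false discovery rate of 0.01. The pair was lost when 50% of each peak had to be shared.

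A wide *Gabbr2* peak carried a 3′-UTR label (CCI chr4:46664014-46677575, 1290 exonic bp in 4 blocks, and 1320 bp in sham). Its fold enrichment was 15.7 in CCI and 18.2 in sham, a log2 ratio of -0.21. The label is for the whole peak: its CCI blocks had 936, 118, 130 and 106 bp, and the farthest from the gene end began at 46677470. The peak at the gene end had 5.67 in CCI and 5.62 in sham, a log2 ratio of 0.01. Both had a differential row, although their fold enrichments were close in the lists. A weak peak annotated to exon 9 of 19 (chr4:46736463-46739872, 121 exonic bp in 2 blocks) was listed in sham alone, with a fold enrichment of 1.56 and a log10 false discovery rate of -5.56. With the first peaks of *Gabbr1* and *Gabbr2* both lower in CCI, the GABA-B receptor genes had their lowest ratios at the gene starts. Both were short of the threshold of 1, which was set for ratios of fold enrichment. As ratios of rank positions they were -1.11 in *Gabbr1* and -1.30 in *Gabbr2*, a measure for which no share over all pairs is given here.

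*Slc12a5* (ENSMUSG00000017740, chr2:164960846-164999731, plus strand) encodes the exporter that keeps neuronal chloride low. Its 5′-UTR peak had a fold enrichment of 36.5 in CCI and 16.8 in sham, 2.17-fold higher in CCI with a log2 ratio of 1.12. The peak covered 749 exonic bp in 5 blocks in CCI (chr2:164962467-164973724) and 569 bp in 4 blocks in sham (chr2:164962750-164973694), and a block present in both, from 164967983 to 164968454, holds the downstream transcription start. Upstream of that block CCI had blocks of 64 and 89 bp (164962467-164962530 and 164962664-164962752), where sham had 3 bp (164962750-164962752). The fold enrichments thus come from partly different exonic bases, which limits the comparison of CCI with sham at this peak. By rank the peak stood in the top 5.62% of the CCI list and the top 16.2% of the sham list. The log10 false discovery rate was -64.8 in CCI and -82.3 in sham, so the list with the higher fold enrichment had the weaker score, and there was no differential row.

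The 3′-UTR of *Slc12a5* carried a peak of about the same strength that hardly differed (CCI chr2:164997428-164998355, 928 bp, and 987 bp in sham), with 35.7 in CCI and 38.4 in sham, a log2 ratio of -0.11. This peak had a differential row. Of the exon peaks, the one in exon 8 of 26 had 1.79 in CCI and 1.36 in sham, a log2 ratio of 0.40, and the one annotated to exon 21 of 26 in CCI and exon 20 of 26 in sham had 2.61 in CCI and 3.12 in sham, a log2 ratio of -0.26, with a differential row. A weak 3′-UTR peak starting at 164999043 had 1.49 in CCI and 1.64 in sham, and another was listed in sham alone (chr2:164998595-164998684, 90 bp, fold enrichment 1.23, log10 false discovery rate -6.57). In *Slc12a5*, then, the large gap was at the 5′ end, and the strong peak at the 3′ end kept its level.

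**Figure D2:**
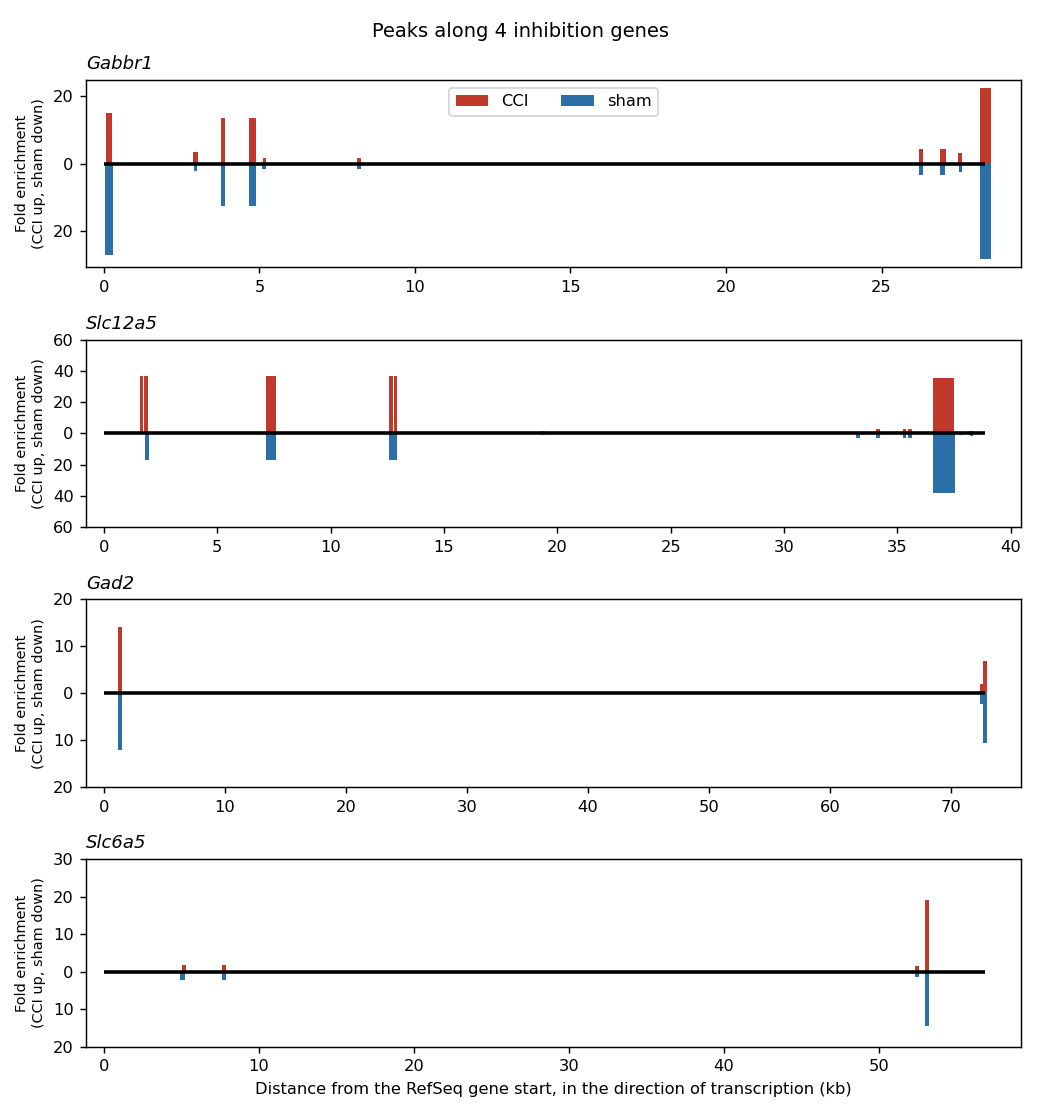
Peaks along *Gabbr1*, *Slc12a5*, *Gad2* and *Slc6a5*, by distance from the RefSeq gene start in kb (x axis). Bars give the fold enrichment of IP over input of the peak to which each block belongs, upward for CCI and downward for sham, 1 library pair each, and short blocks are widened to be visible. The 5′ blocks of *Slc12a5* reach 36.5 in CCI and 16.8 in sham, while its 3′ peak stands at 35.7 and 38.4.

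The 3 peaks listed in 1 group alone, in *Glra1*, *Gabbr2* and *Slc12a5*, had fold enrichments of 1.48, 1.56 and 1.23 and ranked 98.4%, 97.1% and 99.8% from the top of their lists. Weak peaks were common among the members: 7 of the 26 in CCI and 7 of the 27 in sham had a fold enrichment below 2, against 8.65% and 9.45% of the whole lists. At the other end, 10 member peaks in CCI and 11 in sham reached 10, against 30.5% and 30.9% of the lists. The median of the members was 4.88 in CCI and 3.76 in sham. Fold enrichments between 1 and 2 cannot differ by a factor of 2. The 5 member pairs with both values below 2, from -0.14 to 0.40, therefore could not pass the threshold. For the same reason no such pair over all genes did (0 of 1101).

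By annotated region, 15 of the 26 member peaks in CCI were labelled 3′-UTR (57.7%, 95% Wilson interval 38.9 to 74.5%, counting error only). The others were 6 labelled 5′-UTR (23.1%, 11.0 to 42.1%) and 5 labelled exon (19.2%, 8.51 to 37.9%). The CCI list as a whole had 49.8%, 14.7% and 35.5%. In sham the members had 16 (59.3%, 40.7 to 75.5%), 6 (22.2%, 10.6 to 40.8%) and 5 (18.5%, 8.18 to 36.7%), and the list 48.9%, 16.1% and 35.1%. Each whole-list share lay within the interval of the members. Peaks of the same gene are not independent, and 5 of the 15 3′-UTR peaks in CCI were those of *Gabbr1*.

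Of the 6 5′-UTR pairs 4 were higher in CCI and 2 lower, from -0.96 in *Gabbr2* to 1.12 in *Slc12a5*, with a median of 0.15, where all 4093 5′-UTR pairs had a median of -0.06 and 23.4% with an absolute log2 ratio of at least 1. The 15 3′-UTR pairs had a median of -0.02 (6 higher, 8 lower, 1 equal), where all 14002 had 0.06 and 14.9%. The 4 exon pairs had a median of -0.25 (1 higher, 3 lower), where all 9285 had 0.00 and 13.9%. The plot of log2 ratios by region sets each member pair against the middle 50% of all pairs.

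**Figure D3:**
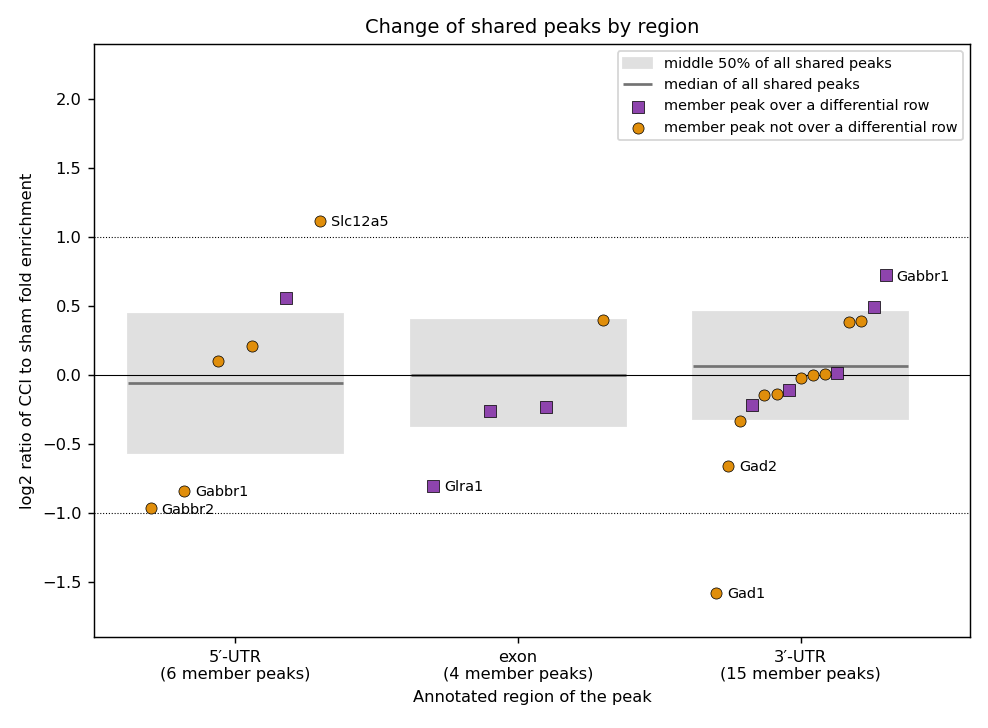
Log2 ratio of fold enrichment, CCI over sham, (y axis) for the 25 member pairs, by annotated region, over the middle 50% (grey box) and the median (grey line) of all pairs in that region. Squares mark pairs that overlap a row of the differential table and circles those that do not, and dotted lines mark a log2 ratio of 1 in each direction. The pairs past those lines, *Gad1* at -1.58 and *Slc12a5* at 1.12, are circles.

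The differential table held 9 rows for 5 of the 8 genes, 2 each for *Glra1*, *Gabbr1*, *Gabbr2* and *Slc12a5* and 1 for *Slc6a5*, and none for *Gad1*, *Gad2* or *Glrb*. Over all genes with peaks in both lists, 28.4% had a row. Counted by pairs, 9 of the 25 member pairs (36.0%) overlapped a row, against 15.8% of all pairs. The table and the fold enrichments picked different member sites: neither *Gad1* nor the *Slc12a5* 5′-UTR site, the pairs past the threshold, was in the table, whereas 9 of the 23 pairs below it were. Among all pairs, 20.4% of those with an absolute log2 ratio of at least 1 and 14.9% of those below overlapped a row, and 1931 of the 4328 pairs that overlapped a row had a log2 ratio within 0.5 of 0. Fold enrichment was higher in CCI at 4 of the 9 member sites with a row and lower at 5.

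A wider list of 44 other genes of GABA and glycine transmission was laid beside the members. Of these, 32 had a peak in CCI, 32 in sham, 30 in both and 10 in neither. The genes without a peak were the other glycine receptor alpha subunits *Glra2*, *Glra3* and *Glra4* and the GABA-A or GABA-rho subunits *Gabra5*, *Gabra6*, *Gabrg1*, *Gabrd*, *Gabrp*, *Gabrr1* and *Gabrr3*. At the strongest pair of each gene, by mean fold enrichment, 4 of the 30 genes with a pair were higher in CCI by a log2 ratio of at least 1 and 4 lower, against 22.5% of all genes in either direction. The median over the 30 was 0.03, with 16 higher and 14 lower. Over all 87 of their pairs 7 were higher and 6 lower by that measure (14.9%), and 18 (20.7%) overlapped a differential row.

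Of the 19 GABA-A subunit genes 11 had a pair, and 2 passed the threshold upward and 1 downward. Of the 8 genes of transmitter transport and removal 6 had a pair, 5 of them higher in CCI. *Slc6a11*, a GABA transporter of astrocytes, had 872 in CCI and 294 in sham at its 5′-UTR, a log2 ratio of 1.57, and was the only gene of that group past the threshold. Among the 4 chloride transport genes 1 passed upward and none downward, and of the 4 auxiliary subunits of the GABA-B receptor none passed.

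The scaffold of the inhibitory postsynapse, with 6 genes that all had a pair, had the lowest median of the groups, -0.90. Of these genes 4 were lower in CCI, 3 of them past the threshold, and none passed it upward. Over all genes 22.5% passed it in either direction at their strongest pair. *Shisa7*, a GABA-A receptor partner, had a fold enrichment of 12.2 in CCI and 44.2 in sham at its 5′-UTR, a log2 ratio of -1.86. *Nlgn2*, the neuroligin of inhibitory synapses, had 157 in CCI and 546 in sham at its 5′-UTR, a log2 ratio of -1.80. Over all 28 pairs of the scaffold genes, however, the median was 0.09 and 10 were lower. Of these pairs 2 passed the threshold upward and 3 downward (17.9%), against 15.8% of all pairs over all genes. The low median thus belonged to the strongest site of these genes. At the members' own strongest pairs the log2 ratio ran from -1.58 in *Gad1* and -0.96 in *Gabbr2* to 0.39 in *Slc6a5* and 0.56 in *Glra1*, inside the range of the other inhibition genes.

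**Figure D4:**
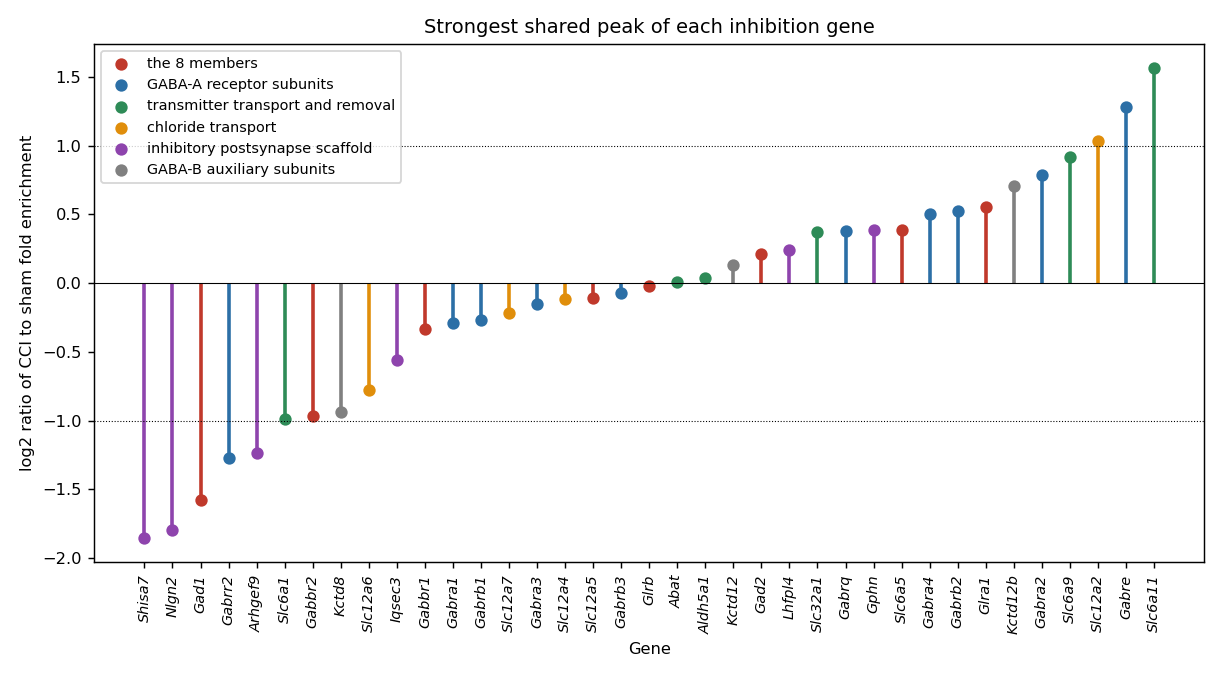
Log2 ratio of fold enrichment, CCI over sham, at the strongest shared peak of each of the 8 members and of all but 1 of the 30 other inhibition genes with a shared peak, in order of the ratio and coloured by gene group, with dotted lines at a log2 ratio of 1 in each direction. The values shown run from -1.86 in *Shisa7* to 1.57 in *Slc6a11*, and *Gad1* is the only member past a dotted line.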

How the data were processed

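Spinal cord RNA from CCI and sham mice was profiled by MeRIP-seq, with 4 libraries in all (IP and input for each of 2 groups). According to the methods of the study, adaptors were removed with Cutadapt, reads were mapped with bowtie and peaks were called with MACS2 and annotated with ChIPseeker, whereas the submitters' processing notes name fastp, HISAT2, HOMER and ChIPseeker and the build GRCm38, and the columns of the tables have the names of exomePeak output. In each deposited table the fold enrichment is a ratio of IP over input made by the authors. The deposited log10 false discovery rate of a peak was handled as a score. The differential table also holds the authors' own log2 fold change, p-value and false discovery rate of CCI against sham, which were not used: only the presence and position of its rows were taken. The files give no read counts, so depth per library is unknown.

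Members were found by gene name. Peaks were paired by exonic blocks as mutual best partners with at least 1 shared bp, and a pair was called where the log2 ratio of fold enrichment (CCI over sham) was at least 1 in either direction. Shares carry 95% Wilson intervals, which cover counting error only. The members, gene lists and markers were chosen with earlier results of these data known. All 8 members are described with every peak, and of the other inhibition genes the 2 lowest and the 2 highest at their strongest shared peak and those without a peak are named, except that 1 of the 2 highest is not reported here, although the counts include it. *Gm12236* was added because it overlaps *Glra1*. Alternatives covered the overlap, the minimum fold enrichment, the false discovery rate, merging, centring, ranks and the fold threshold. Pairing was tested on simulated data. Tables were computed in Python 3.11.15 with pandas 2.3.3, numpy 2.4.6 and scipy 1.17.1, and plots were drawn with matplotlib 3.10.9.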

Additional observations from a re-analysis of the deposited data

How the results depend on the processing

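Of 100 values recomputed under the alternatives, 80 moved by less than the limit set for them and 20 moved, and no pair past the threshold of 1 changed sign. With an absolute log2 ratio of at least 0.5 in place of 1, 9 of the other inhibition genes were higher in CCI and 8 lower, against 4 and 4. The share of all genes past 0.5 is not given here, so these counts have no background by gene. Of all pairs, 58.5% lay within 0.5 of 0. The other 18 values that moved were ratios of rank positions of single pairs, which are not ratios of levels. By rank, the pairs past 1 were *Gad1* (-2.15), *Slc12a5* 5′-UTR (1.52), *Gabbr2* 5′-UTR (-1.30) and *Gabbr1* at the gene start (-1.11), 4 in place of 2, and 1 pair changed sign. The share of all pairs past 1 by rank is not given here, so this count has no background. Member peaks numbered 19 in CCI and 20 in sham at a fold enrichment of at least 2, and 27 and 28 with the *Gm12236* peak counted as *Glra1*. The median log2 ratio of the member pairs ran from -0.11 (fold enrichment of at least 2 in both lists) to -0.01 (overlap of at least 50%), and 2 pairs passed the threshold of 1 under each alternative on the ratio as deposited or centred, but not by rank. Centring on the median of all pairs turned the sign of 2 pairs near 0 (*Gabbr2* at the gene end and the weak *Slc6a5* 3′-UTR site) and made 16 pairs lower in place of 13. The alternatives on *Gm12236* and on a fold enrichment of at least 2 in both lists were chosen after seeing the data. No paired analysis was possible because a single library pair per group leaves no replicates to pair and no test was made. For the same reason no library could be left out, and without read counts the depth behind a single peak is not known.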
